A study of Homo sapiens with 6 samples.

Results

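The genes described here encode the receptors for interferon alpha, beta and gamma and the Janus kinases (JAK) and signal transducers and activators of transcription (STAT) through which these receptors signal. They are IFNAR1, IFNAR2, IFNGR1, IFNGR2, JAK1, JAK2, TYK2, STAT2 and STAT3, 9 of the 23368 gene symbols with counts, and were chosen by name. They were compared between 3 libraries of not treated NB4 cells and 3 of NB4 cells exposed for 24 h to maltonis at 10 µM. NB4, an established cell line of human acute promyelocytic leukemia (APL), carries the PML/RARα fusion. Maltonis is a synthetic compound made from maltol and was given from a stock in water. The sources do not state that untreated cells received the solvent, and both groups are of 1 cell line, so that the values describe this line at 1 dose and 1 time. RNA was sequenced from stranded libraries of total RNA, and the deposited values are HTSeq counts per gene symbol.

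Type I interferons bind a receptor made of an IFNAR1 and an IFNAR2 chain, which carry the kinases TYK2 and JAK1 on their inner side. The kinases phosphorylate STAT2, which joins IRF9 in the complex ISGF3 and acts on genes with an interferon-stimulated response element (ISRE). Interferon gamma binds the chains IFNGR1 and IFNGR2, which carry JAK1 and JAK2, and acts on genes with gamma-activated sites (GAS). STAT3 is best known downstream of interleukin-6 type receptors that contain the gp130 chain, and of the granulocyte colony-stimulating factor receptor in myeloid cells.

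After maltonis, 5 of the 9 genes were higher (STAT2, TYK2, IFNAR1, IFNGR1 and JAK2), 2 were lower (IFNGR2 and JAK1) and IFNAR2 and STAT3 were not called. A gene was called at a false discovery rate (FDR) under 0.01 in the quasi-likelihood test of edgeR, adjusted by Benjamini-Hochberg over 13209 genes, and all 9 genes were among those tested. The treatment moved much of the transcriptome: 31.9% of the tested genes were called higher and 32.1% lower, 64.0% in all, and the 7 called genes of 9 are to be read against that share. With a further criterion of more than 2.497-fold in size, STAT2 alone of the 9 genes was higher and 0 were lower, against 9.96% and 10.4% of the tested genes, 20.3% in all. The median log2 fold change of the 9 genes was 0.34, beside 0.01 over all tested genes. All 3 libraries of a group lay on one side of the other group for the 7 called genes, and this held for 76.6% of the tested genes, 38.8% higher and 37.8% lower.

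Depth ranged from 18492154 to 38205483 counts per library. A floor of 3 counts lay between 0.0828 and 0.160 CPM, the unit of counts per 1e6 scaled counts, and covers counting error only. Every one of the 9 genes had at least 257 counts in each library, well above this floor. The names under which the counts were deposited hold a code whose meaning is not stated. By this code, replicate 1 of both groups is called batch A here and replicates 2 and 3 are called batch B. Of 9 promyelocyte markers, 4 were higher and 4 lower after maltonis, beside 31.9% and 32.1% of all tested genes. Their summed level lay between 14120 and 16554 CPM without treatment and between 8766 and 9240 CPM with it, most of it from MPO. The median log2 fold change of the 9 markers was 0.48. MPO fell by 0.98 on the log2 scale, while CTSG rose by 2.34, and ELANE had 3, 6 and 2 counts without treatment and 406, 565 and 409 counts after it. ELANE passed the filter on low counts only through its treated libraries. Of the markers of other cell types, the 5 erythroid genes summed to 0.0533 CPM at most. The T-cell and B-cell genes CD3E and MS4A1 had at most 2 counts, while the 8 lymphoid genes summed to between 51.8 and 55.7 CPM without and between 20.01 and 20.7 CPM with maltonis, mostly CD3D, with 1 of 5 tested higher and 4 lower. The 4 monocyte genes summed to between 5.49 and 12.6 CPM and between 12.4 and 13.3 CPM, with 0 called. The 5 stromal and epithelial genes lay between 25.2 and 31.0 CPM and between 26.8 and 33.0 CPM, with 1 higher and 1 lower. The part of these markers in the values below was not tested. Less RNA per cell and fewer cells that make it cannot be told apart in these bulk samples.

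**Figure D1:**
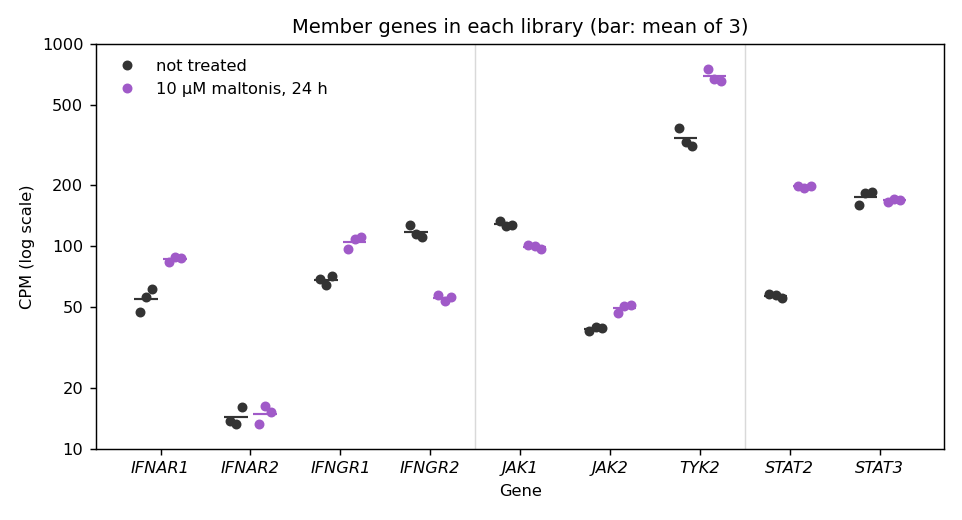
CPM of the 9 genes in each library on a log scale, with not treated libraries in black, libraries with 10 µM maltonis in purple and the mean of 3 as a bar. The groups are apart for 7 genes and overlap for IFNAR2 and STAT3, and TYK2 is the highest and IFNAR2 the lowest in both groups.

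Of the type I receptor chains, IFNAR1 rose and IFNAR2 did not differ detectably. IFNAR1 measured 47.4, 56.1 and 61.5 CPM in not treated replicates 1, 2 and 3, against 84.0, 88.9 and 88.0 CPM after maltonis. Every treated library was above every untreated one, and the untreated libraries were more spread than the treated ones. The mean rose from 55.0 ± 7.13 to 87.0 ± 2.59 CPM (SD, n = 3), or 1.58-fold, with a log2 fold change of 0.66 ± 0.0934 (standard error, as for all log2 fold changes given with ±; edgeR adjusted p = 0.000214). Batch A gave a log2 difference of 0.83, batch B of 0.59. IFNAR2, the chain that binds type I interferon with the higher affinity, measured 13.7, 13.3 and 16.1 CPM in untreated and 13.3, 16.3 and 15.2 CPM in treated libraries. Its groups overlapped, with a log2 fold change of 0.06, a 95% confidence interval from −0.20 to 0.31 and an edgeR adjusted p of 0.658. An increase of IFNAR2 as large as that of IFNAR1 lies outside this interval.

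The type II receptor chains moved in opposite directions, with IFNGR1 higher and IFNGR2 lower after maltonis. IFNGR1, the ligand-binding chain, measured 69.0, 64.8 and 71.0 CPM in untreated against 97.1, 108 and 112 CPM in treated libraries. All treated libraries were above the untreated ones, and the log2 fold change was 0.63 ± 0.0722 (edgeR adjusted p = 5.59e-05; batch A 0.49, batch B 0.70). IFNGR2, the second chain, which signals with JAK2, fell from 127, 115 and 111 CPM to 57.7, 53.5 and 56.2 CPM. Its libraries without treatment were all at least 110.9 CPM and those with maltonis at most 57.7 CPM. The log2 fold change of IFNGR2 was −1.08 ± 0.0703 (edgeR adjusted p = 1.77e-06), a 2.11-fold decrease, and was −1.14 in batch A alone and −1.04 in batch B alone. This was the largest decrease among the 9 genes. IFNGR2 overlaps TMEM50B on the opposite strand in GENCODE version 29, and whether reads were counted by strand is not given in the sources used here, so reads of the overlap may have been assigned to either gene or to none. TMEM50B, at 41.0 ± 1.82 CPM in untreated and 32.6 ± 3.76 CPM in treated libraries (SD, n = 3), was not called (log2 fold change −0.32, edgeR adjusted p = 0.0117).

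The 3 kinases differed in direction. TYK2, the kinase bound to IFNAR1, rose from 383, 329 and 314 CPM to 753, 672 and 653 CPM, and in both groups replicate 1, the batch A library, was the highest. The lowest treated library was 1.71 times the highest untreated one. Its mean rose from 342 ± 36.1 to 693 ± 53.3 CPM (SD, n = 3), or by 1.02 ± 0.0898 on the log2 scale (edgeR adjusted p = 1.09e-05; batch A 0.98, batch B 1.04). JAK1, which serves both interferon receptors, fell from 133, 126 and 128 CPM to 101, 101 and 97.5 CPM. The groups did not overlap, and JAK1 decreased 1.29-fold (log2 fold change −0.37 ± 0.0545, edgeR adjusted p = 0.00027; batch A −0.40, batch B −0.36). JAK1 overlaps RAVER2 on the opposite strand, whose counts summed over 3 libraries were 2210 before and 741 after treatment, and a part of those reads in the value of JAK1 was not tested. JAK2, the kinase of IFNGR2, measured 38.1, 39.9 and 39.4 CPM untreated and 46.8, 50.5 and 51.1 CPM treated, with the groups apart. Its log2 fold change of 0.34 ± 0.0655 (edgeR adjusted p = 0.00142) was the smallest in size of the called genes. The call was lost without maltonis replicate 2 (0.30, edgeR adjusted p = 0.0153) or without maltonis replicate 3 (0.29, edgeR adjusted p = 0.0135). Within batches the values were close, 0.30 (A) and 0.36 (B).

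STAT2, the STAT particular to ISGF3, had the largest change of the 9 genes. STAT2 rose from 58.0, 57.4 and 55.8 CPM to 199.7, 195 and 199.6 CPM. Both groups were tight, and the lowest treated library was 3.36 times the highest untreated one. STAT2 rose 3.47-fold, by 1.80 ± 0.0536 on the log2 scale (edgeR adjusted p = 3.83e-08; batch A 1.78, batch B 1.80). STAT3 measured 159, 183 and 186 CPM untreated against 165, 172 and 169 CPM treated. The treated libraries all fell within the range of the untreated ones. The log2 fold change of STAT3 was −0.06, with a 95% confidence interval from −0.22 to 0.10 (edgeR adjusted p = 0.442), and turned to 0.057 with total counts and 0.025 with the upper quartile as the scaling. Batch A alone gave 0.05 and batch B alone −0.11.

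**Figure D2:**
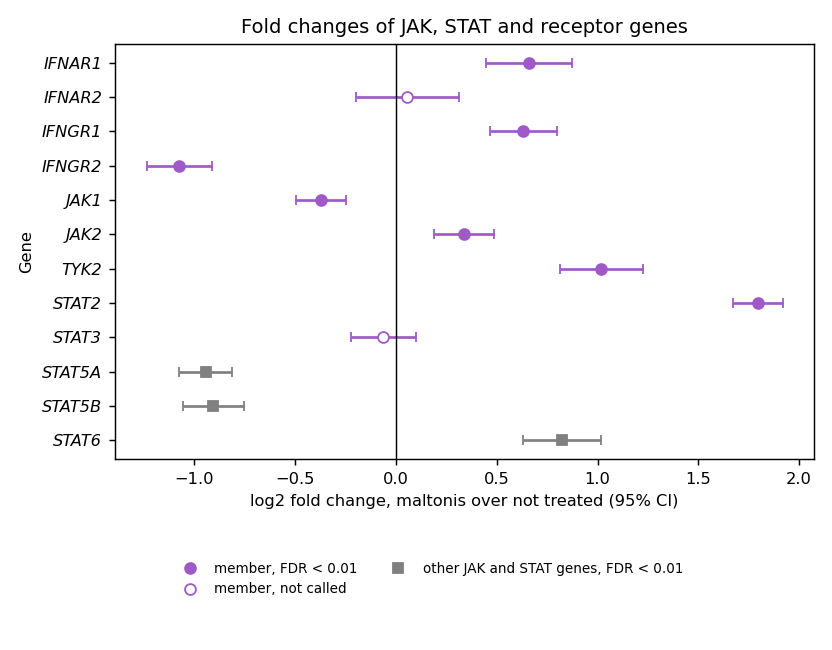
Log2 fold change of maltonis over not treated with its 95% confidence interval, for the 9 genes (circles) and for STAT5A, STAT5B and STAT6 (squares), filled where the FDR was under 0.01. STAT2 stands highest at 1.80 and IFNGR2 lowest at −1.08, and the intervals of IFNAR2 and STAT3 include 0.

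Levels of different genes were compared as CPM per kb of annotated exons. In not treated cells TYK2 was highest, at 50.5 ± 5.32 CPM per kb (SD, n = 3), followed by IFNGR2 at 39.7 ± 2.81. IFNGR1, JAK1 and STAT3 came next at 20.8, 20.4 and 19.99 CPM per kb, and neighbours among them did not differ beyond the spread of their libraries. STAT2 and IFNAR1, at 9.34 and 8.73 CPM per kb, also overlapped, and JAK2 (6.34) and IFNAR2 (3.11 ± 0.329) were lowest. After maltonis the order was TYK2 (102 ± 7.88), STAT2 (32.4), IFNGR1 (32.2), STAT3 (19.2), IFNGR2 (18.8), JAK1 (15.8), IFNAR1 (13.8), JAK2 (8.02) and IFNAR2 (3.23) in CPM per kb. Only the pair STAT2 and IFNGR1 and the pair STAT3 and IFNGR2 overlapped there. STAT2 thus moved from the sixth place to the second, and IFNGR2 from the second to the fifth. These places depend on gene length: with only the exons of RefSeq-linked transcripts, STAT3 stood above JAK1 and IFNGR1 in not treated cells, at 34.9 against 25.6 and 24.2 CPM per kb, while STAT2 and IFNGR2 had the same places.

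Ratios between genes of 1 library do not depend on the scaling between libraries, and 5 were formed from CPM per kb. IFNGR1 over IFNGR2 moved from 0.491, 0.509 and 0.579 to 1.52, 1.83 and 1.79, so that the chain with the lower level changed from IFNGR1 to IFNGR2. With counts not divided by length, the ratio likewise crossed 1, from a mean of 0.581 to 1.89. IFNAR1 over IFNAR2 moved from 2.53, 3.09 and 2.79 to 4.64, 4.003 and 4.24. TYK2 over JAK1 rose from between 2.30 and 2.68 to between 6.23 and 6.94, and JAK2 over JAK1 from between 0.293 and 0.324 to between 0.473 and 0.537. STAT2 over STAT3 moved from 0.525, 0.453 and 0.433 to 1.74, 1.64 and 1.70. On the log2 scale the differences were 1.70 for IFNGR1 over IFNGR2, 0.62 for IFNAR1 over IFNAR2, 1.39 for TYK2 over JAK1, 0.71 for JAK2 over JAK1 and 1.85 for STAT2 over STAT3. Each pair of groups was apart, and a two-sided exact permutation test gave p = 0.1 for each ratio, also after adjustment over the 5 ratios, which is the smallest p that 3 libraries against 3 allow. In batches A and B the log2 differences were 1.63 and 1.74, 0.87 and 0.49, 1.37 and 1.402, 0.69 and 0.71, and 1.73 and 1.91 in that order.

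**Figure D3:**
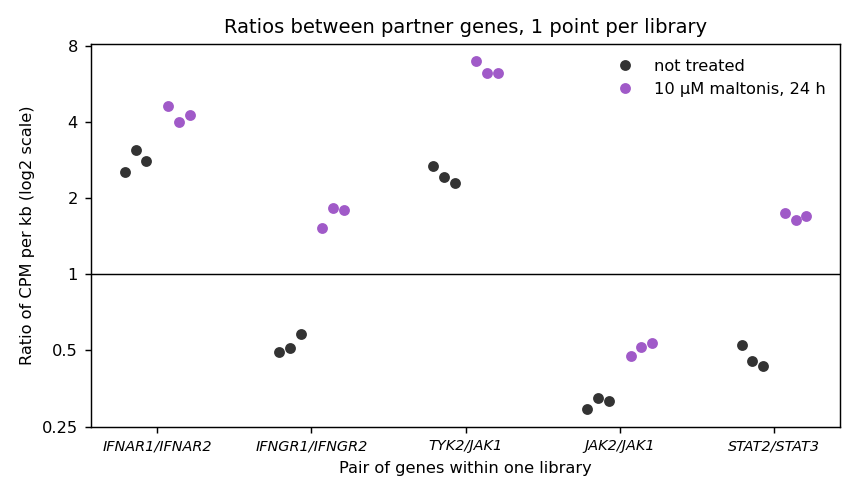
Ratio of CPM per kb between 2 genes of the same library on a log2 scale, 1 point per library, with not treated in black and maltonis-treated in purple and a line at a ratio of 1. IFNGR1/IFNGR2 and STAT2/STAT3 cross 1, from at most 0.579 and 0.525 to at least 1.52 and 1.64.

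The promoters of the genes with the largest changes are shown to set their letters beside the values. RefSeq windows from 250 bases before to 50 bases after a start (build GRCh38.p14) were found for 8 of the 9 genes, 15 windows in all. An ISRE core (GAAA, any 2 bases, then GAAA again, either strand) and a GAS (TTCNNNGAA, which reads alike on both strands) were each found in 0 of the 15 windows, against 3.57% and 7.66% of all 35116 windows. A GC box (GGGCGG, either strand) was found in 8 of the 15 windows, against 44.95% of all windows. Capitals below mark these motifs, written 5′ to 3′ on the strand of the gene. The window of STAT2, the gene with the largest rise, lies at chr12:56360058-56360357 on the minus strand, and that of IFNGR2, the gene with the largest fall, at chr21:33403163-33403462 on the plus strand. IRF9, the partner of STAT2 in ISGF3, is shown for comparison at chr14:24161015-24161314 on the plus strand, with a GAS and GC boxes. Windows of STAT5A, STAT5B, STAT6 and SOCS1 were also searched and are not shown. That of SOCS1 held 1 ISRE core and 0 GAS, and the others held 0 of both.
STAT2: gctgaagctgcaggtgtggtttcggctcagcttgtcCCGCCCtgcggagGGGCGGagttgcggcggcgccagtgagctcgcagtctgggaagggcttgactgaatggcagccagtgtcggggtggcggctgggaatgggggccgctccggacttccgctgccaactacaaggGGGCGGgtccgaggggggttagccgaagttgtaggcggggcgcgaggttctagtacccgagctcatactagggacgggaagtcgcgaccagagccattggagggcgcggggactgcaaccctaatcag
IFNGR2: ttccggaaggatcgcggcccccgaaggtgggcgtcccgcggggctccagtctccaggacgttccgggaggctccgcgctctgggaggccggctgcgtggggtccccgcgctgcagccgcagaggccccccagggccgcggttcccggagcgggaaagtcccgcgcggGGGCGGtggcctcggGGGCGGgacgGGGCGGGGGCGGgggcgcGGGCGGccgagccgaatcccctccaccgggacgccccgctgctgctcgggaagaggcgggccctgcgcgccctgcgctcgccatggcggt
IRF9: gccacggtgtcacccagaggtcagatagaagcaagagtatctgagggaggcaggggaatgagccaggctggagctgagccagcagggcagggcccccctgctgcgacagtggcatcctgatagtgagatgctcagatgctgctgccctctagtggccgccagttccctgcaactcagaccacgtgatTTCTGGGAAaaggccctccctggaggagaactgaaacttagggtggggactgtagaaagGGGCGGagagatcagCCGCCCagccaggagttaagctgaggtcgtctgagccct
The windows of STAT2 and IFNGR2 held 3 and 5 GC boxes, and that of TYK2 held 0. A match is a description of the letters, and a window without a match says nothing of sites outside it or of other spellings.

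IFNAR2, IFNAR1 and IFNGR2 lie in a row on chromosome 21 with IL10RB, the second chain of the interleukin-10 and interferon lambda receptors, between the first and the other two. The gaps are 0.682 kb from IFNAR2 to IL10RB, 14.3 kb to IFNAR1 and 43.0 kb from there to IFNGR2 (GENCODE version 29, GRCh38, while the counts were made on hg19). All 4 genes are on the plus strand, at positions 33229901 to 33265675 for IFNAR2, 33324477 to 33359862 for IFNAR1 and 33402896 to 33479348 for IFNGR2. Along this row the log2 fold changes were 0.06, 0.17, 0.66 and −1.08 for IFNAR2, IL10RB, IFNAR1 and IFNGR2. IL10RB, with means of 40.3 ± 3.33 and 45.4 ± 2.56 CPM (SD, n = 3), was not called (edgeR adjusted p = 0.0858). Of 9 tested genes of a list of neighbours, 3 were higher and 2 lower, beside 31.9% and 32.1% of all tested genes. DNAJC28, which encodes a J-domain protein, had the largest rise, from 0.373, 0.580 and 0.633 CPM to 4.29, 4.92 and 4.54 CPM. OLIG1 and OLIG2, neighbouring genes of transcription factors known from oligodendrocytes, moved apart, with log2 fold changes of 2.02 ± 0.0984 for OLIG1 and −1.24 ± 0.0696 for OLIG2. GART, an enzyme of purine synthesis, fell by 0.72 on the log2 scale. Genes of this stretch that rose, fell or were not called lay side by side, and their counts are not read as a trait of the stretch. The other 6 genes lie apart, JAK1 on chromosome 1, IFNGR1 on 6, JAK2 on 9, STAT2 on 12, STAT3 on 17 and TYK2 on 19.

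**Figure D4:**
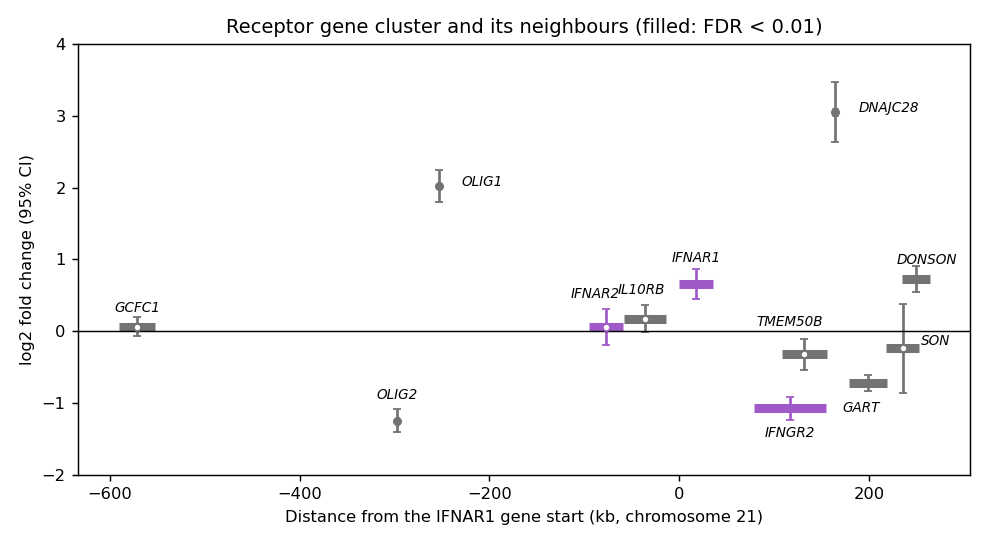
Log2 fold change with its 95% confidence interval against the distance in kb from the start of IFNAR1 on chromosome 21, where each horizontal bar spans a gene, purple marks the 3 receptor genes of interest and filled points had an FDR under 0.01. IFNAR1 (0.66) and IFNGR2 (−1.08) lie on opposite sides of 0, as do OLIG1 and OLIG2.

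Of 3 further STAT genes tested, STAT6 was higher and STAT5A and STAT5B were lower, beside 31.9% and 32.1% of all tested genes. STAT6, the factor of interleukin-4 signalling, rose by 0.82 on the log2 scale, from 169 ± 14.9 to 299.9 ± 24.99 CPM (SD, n = 3). STAT5A and STAT5B, which act downstream of many growth factor and cytokine receptors of blood cells, fell together, from 120 ± 4.71 to 62.6 ± 0.496 CPM and from 143 ± 10.2 to 76.5 ± 0.842 CPM (SD, n = 3). Their log2 fold changes were −0.94 and −0.91, and the groups of all 3 genes were apart, as were those of 76.6% of all tested genes. STAT5A lies 1.38 kb from STAT3 and 10.8 kb from STAT5B on chromosome 17, while STAT3, at the end of this row, was not called. STAT5A and STAT5B are close paralogs, and reads that fit both are uncertain. STAT4, the factor of interleukin-12 signalling, had 1, 3 and 3 counts in untreated and 4, 19 and 20 counts in treated libraries, a ratio of 6.68 after scaling with an exact 95% interval from 2.98 to 17.6 for counting error. STAT4 did not pass the filter on low counts. It was tested and called higher with no such filter, without not treated replicate 1 or 3 or maltonis replicate 1, and with replicates 2 and 3 only, which made 2 further STAT genes higher in place of 1. Where the filter was kept, STAT4 passed it only through treated libraries, so that it could hardly be called other than higher. JAK3 had 1 count in a single library. IRF9 rose from 7.14, 5.99 and 6.36 CPM to 49.0, 45.5 and 49.4 CPM, or 2.90 ± 0.0889 on the log2 scale, and IRF1, a transcription factor induced through GAS, rose by 0.45 ± 0.0683.

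Interferon genes themselves were scarcely detected. Of 21 genes of interferon alpha, beta, gamma, lambda and related types, 12 had no count in any library, and only IFNB1 was tested. IFNB1 had 3 counts in every untreated library and 19, 17 and 14 in the treated ones, 6.04 times as many after scaling, with an exact 95% interval from 2.94 to 13.98 for counting error. It passed the filter on low counts only through its treated libraries, so that it could hardly be called other than higher. IFNA1 and IFNW1 had at most 5 and 6 counts in a library, the 6 other detected interferon alpha genes at most 2, and IFNG was at 0 in all 6. The interferon alpha genes are similar in sequence, and their few reads are uncertain.

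Other receptors that signal through these kinases moved both ways, as did the tested genes as a whole. Of 8 tested receptor chains of the gp130 and interleukin-12 type, 5 were higher and 2 lower, beside 31.9% and 32.1% of all tested genes. IL12RB1, a chain of the interleukin-12 and interleukin-23 receptors that works with TYK2, had 0, 2 and 1 counts before and 36, 60 and 62 counts after maltonis, a ratio of 57.3 after scaling with an exact 95% interval from 19.2 to 281 for counting error. IL12RB1 passed the filter on low counts only through its treated libraries, so that it could hardly be called other than higher. IL11RA, a receptor that pairs with gp130, rose by 1.71 on the log2 scale. IL27RA and IL6R, the receptors for interleukin-27 and interleukin-6, were lower, with log2 fold changes of −1.19 and −0.36. IL6ST, which encodes gp130 and is named after its values were seen, rose from 18.4, 18.2 and 18.9 CPM to 34.3, 37.6 and 42.4 CPM. The count of 5 includes CSF3R, the granulocyte colony-stimulating factor receptor, at 0.37 (edgeR adjusted p = 0.00766), which lost its call without any 1 library other than not treated replicate 1 (0.26 to 0.40). Of 7 tested chains of the common beta and common gamma type, 3 were higher and 3 lower, beside the same shares of all tested genes. CSF2RB, the common beta chain, rose by 0.85 on the log2 scale and IL13RA1, a receptor for interleukin-13, by 0.72. The third was IL15RA, the interleukin-15 receptor, at 0.42 (edgeR adjusted p = 0.00762), whose call was likewise lost without any 1 library other than not treated replicate 1 (0.35 to 0.47). IL4R, the interleukin-4 receptor, fell from 44.3, 44.7 and 43.9 CPM to 14.1, 13.9 and 13.1 CPM (log2 fold change −1.69 ± 0.0685). IL2RB, a chain of the interleukin-2 receptor, stood at most at 2.32 CPM, with a log2 difference of −0.85 in batch A and −2.82 in batch B. IL3RA, CSF2RA and CRLF2, which lie in a region common to both sex chromosomes where reads may have more than 1 place, had next to no counts and are not read. Among the interleukin-10 family, IL10RA fell by 1.36 on the log2 scale, IL20RB was not called at −0.06, and IFNLR1, the specific chain of the interferon lambda receptor, had at most 3 counts in a library. EPOR, the erythropoietin receptor, rose from 3.81 ± 0.231 to 8.53 ± 1.34 CPM (SD, n = 3), while GHR and PRLR had at most 6 counts in a library.

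Negative regulators of the pathway were all detected, and of 19 tested 5 were higher and 7 lower, beside 31.9% and 32.1% of all tested genes. SOCS1, which blocks JAK kinases, rose most, from 1.33, 1.85 and 1.45 CPM to 16.4, 12.9 and 10.6 CPM. On the log2 scale it rose by 3.07 ± 0.203 (batch A 3.62, batch B 2.83). USP18, which binds IFNAR2 and damps type I signalling, rose by 1.51 on the log2 scale, from 4.52 ± 0.592 to 12.8 ± 0.636 CPM (SD, n = 3). PIAS3, known as an inhibitor of STAT3, and SOCS6 had the lowest values of the list, with log2 fold changes of −1.43 and −1.37. The median of the list was −0.25, and of the 19 genes 6 had all treated libraries above the untreated ones and 10 had them below, beside 38.8% and 37.8% of the tested genes.

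Lists of downstream genes were given by their known regulators. All 13 tested genes of 15 with an ISRE were higher, beside 31.9% of all tested genes. Each had a log2 fold change of at least 1.68, and the median was 3.53. OAS3, an enzyme activated by double-stranded RNA, and MX1, an antiviral GTPase, stood highest at 5.34 and 4.002, and IFIH1 and DDX58, which sense viral RNA, lowest at 1.68 and 2.21. Of 9 tested GAS genes, 6 were higher and 2 lower, beside 31.9% and 32.1% of all tested genes, and the median was 0.90. GBP1, a GTPase induced by interferon gamma, had 0, 4 and 3 counts before and 15, 34 and 17 counts after maltonis. GBP1 passed the filter on low counts only through its treated libraries, so that its place among the 6 was close to fixed. ICAM1, an adhesion molecule, and IRF8, a myeloid transcription factor, were lower, at −1.31 and −0.56. Of 11 tested genes induced through STAT3, 3 were higher and 2 lower, beside the same shares of all tested genes, and the median was −0.11. SOCS3, a feedback inhibitor induced through STAT3 and named after its values were seen, was not called at −0.27 (edgeR adjusted p = 0.218). BCL6 and FOS, both transcription factors, were higher at 1.28 and 0.77, while CCND1, a cyclin of the G1 phase, fell from 69.3 ± 2.08 to 9.07 ± 0.709 CPM (SD, n = 3) and CEBPD, a transcription factor of myeloid cells, had a log2 fold change of −0.59 (edgeR adjusted p = 0.00946). The call of CEBPD was lost without not treated replicate 1 or 2 or maltonis replicate 2 or 3 (−0.49 to −0.58, edgeR adjusted p from 0.017 to 0.0311) and with total counts or the upper quartile as the scaling. SOCS1 and IRF1 of the GAS list also stand in other groups described here, and the lists were chosen with earlier results known, so that their counts are a description.

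**Figure D5:**
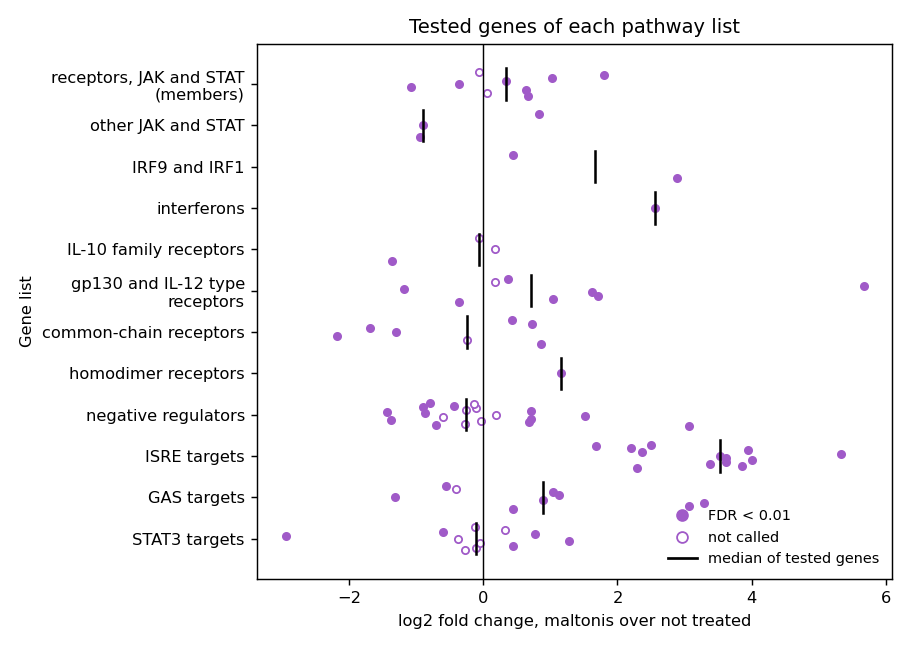
Log2 fold changes of the tested genes of each list, filled where the FDR was under 0.01, with the median as a black bar. All ISRE genes stand at 1.68 or above, while the other receptor lists with more than 1 tested gene and the negative regulators spread to both sides of 0. EPOR, the only tested homodimer receptor, stands at 1.16. The values of IL12RB1, IFNB1 and GBP1 rest on at most 9 counts in not treated cells. These genes passed the filter on low counts only through the treated libraries.

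The genes with the profile most like that of STAT2 over the 6 libraries were SAMHD1, LETMD1 and C6orf130, by the root mean square difference of log2 CPM after each gene was centred on its mean. The differences were 0.0449, 0.0470 and 0.0486 on the log2 scale. SAMHD1, an enzyme that degrades nucleotides and restricts viruses, rose from 91.5, 89.9 and 90.0 CPM to 303, 289.7 and 297 CPM. For IFNGR2 the closest were C14orf159, ILK and TARBP2, at 0.0220, 0.0322 and 0.0323. ILK, the integrin-linked kinase, fell from 177, 168 and 157 CPM to 85.7, 78.4 and 80.8 CPM. With 6 libraries in 2 groups, this likeness is mostly that of the fold change.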

How the data were processed

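RNA of 3 not treated and 3 maltonis-treated NB4 samples was analysed from the whole-number HTSeq counts of reads per gene symbol that the authors deposited, without normalization. TopHat, Bowtie2, HTSeq and hg19 are named in the submitters’ processing notes; the annotation and the strand setting are not given in the sources used here. Some genes are not reported here. The members and gene lists were chosen with earlier results of these data known.

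The test used edgeR 4.0.16 under R 4.3.3 (TMM, filterByExpr, quasi-likelihood test without covariates, Benjamini-Hochberg adjustment over 13209 genes), after the study’s use of edgeR with TMM. Single genes were called at an FDR under 0.01, and every adjusted p comes from this test. Log2 fold changes are maltonis over not treated, and their standard errors were derived from the F statistic. CPM use the effective library sizes. Exon lengths are the union of all exons in GENCODE version 29, found for 21591 symbols. IFNLR1, IFNL1, IFNL2, IFNL3 and PAXBP1 were matched by an older symbol. Ratios were compared with a two-sided exact permutation test (scipy 1.17.1). Genes named by rule are the 9 members, other JAK and STAT genes, detected genes of lists with 6 or fewer tested genes, the 2 highest and 2 lowest called genes of longer lists, and the 3 genes closest in profile to the members with the largest rise and fall. Further genes are named outside this rule. Among them are cell type markers, genes that overlap a member, and IL3RA, CSF2RA and CRLF2. CSF3R and IL15RA, whose calls were lost in alternatives, and IL6ST and SOCS3, named after their values were seen, are also among them. The edgeR test was checked on simulated counts with few changed genes and no batch. That check does not cover data in which 64.0% of the tested genes were called. The study calls the replicates biological, and whether they were separate cultures is not given further. Replicates differed by more than sampling noise (chi-square per degree of freedom from 4.15 to 33.1). Alternatives covered scaling, DESeq2 1.42.0, the likelihood ratio test, filters, the replicate block, the batch, and leaving out each library.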

Additional observations from a re-analysis of the deposited data

How the results depend on the processing

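Leaving out each library gave log2 fold changes between 0.29 and 0.35 for JAK2, which lost its call without maltonis replicate 2 (0.30) and without maltonis replicate 3 (0.29), and between −0.04 and 0.14 for IFNAR2, below 0 without not treated replicate 2 (−0.0071) or without maltonis replicate 2 (−0.036). STAT3 turned to 0.057 with total counts and 0.025 with the upper quartile. Total counts as the only scaling moved the median of all tested genes from 0.01 to 0.13. With more than 2.497-fold as a further criterion, 1 member was higher and 0 were lower. The lower genes induced through STAT3 numbered 1 with total counts, with the upper quartile and with CPM above 1 in 3 libraries, between 1 and 3 without each library, and 4 with replicates 2 and 3 only. The higher genes among the other JAK and STAT genes numbered 2 with no filter and with replicates 2 and 3 only, and between 1 and 2 without each library, through STAT4. Where the filter was kept, STAT4 passed it only through treated libraries. Among the genes induced through STAT3, CEBPD is the gene whose call was lost. CSF3R and IL15RA among the receptor lists lost their calls without any 1 library other than not treated replicate 1. IFNB1 did not pass the filter of CPM above 1 in 3 libraries, which left 0 interferon genes higher. The cause of these changes was not tested, apart from the fewer genes of that filter. Apart from the further criterion on fold size, the other calls of the 9 genes held under every alternative run.

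Not treated and maltonis-treated libraries share replicate numbers, but nothing says that they were cultured together. Deviations of same-numbered libraries correlated with 0.257, 0.0696 and 0.133 for replicates 1, 2 and 3, and not treated replicate 2 and maltonis replicate 2 each correlated best with another number, so the numbers were not taken to pair the libraries. A fit with this number as a block called 5 of the 9 genes higher and 2 lower, as without it, and STAT2 had a log2 fold change of 1.80 and IFNGR2 of −1.07. The within-library ratios had the same differences with the pairing, and an exact permutation test over 3 pairs gave p = 0.25, the smallest it allows.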
